A study of Mus musculus with 19 samples.

Results

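The constitutive proteasome subunits were described in mouse gastrocnemius, a calf muscle, as the genes whose symbol begins with Psma, Psmb, Psmc or Psmd followed by a number, leaving out the interferon-induced Psmb8, Psmb9 and Psmb10. The rule gave 36 of the 54176 rows of the table. Of these, 35 passed the filter on low counts, as did 17028 genes in all. The exception was Psma8, an alpha subunit known from testis, with at most 5 counts in a library and 18 counts over all 19 libraries.

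RNA was sequenced from muscle of FVB mice of 2 genotypes, wild type (WT) and mCK-hLPL, a transgene in which the muscle creatine kinase promoter drives human lipoprotein lipase. Lipoprotein lipase releases fatty acids from circulating triglyceride. The muscle was taken while the mice maintained a lost weight (WLM) or 24 hours into refeeding, on the first day of regain (REL), and mice that had not lost weight were not analysed here. There were 5 WT_WLM, 5 mCK-hLPL_WLM, 4 WT_REL and 5 mCK-hLPL_REL libraries. Ages and sexes were not given in the sources used here, and neither was whether each library came from its own animal, so p-values reflect the spread among these libraries, which may be technical. The column names of 2 WT_REL libraries did not match a numbered sample, and these are called WT_REL A and WT_REL B.

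The proteasome is the protease that degrades proteins tagged with ubiquitin. Its barrel-shaped core is built of stacked rings of alpha subunits, which gate the entrance, and of beta subunits, some of which cut peptide bonds. A regulatory cap binds ubiquitin chains, removes them and uses ATPases to unfold the substrate and thread it into the core. In skeletal muscle this system breaks down contractile protein during fasting and disuse, and its genes are known to rise in many forms of muscle atrophy.

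Total counts per library ran from 35595030 to 51073355. The mouse Lpl row had medians of 627, 737, 723 and 810 CPM in WT_WLM, mCK-hLPL_WLM, WT_REL and mCK-hLPL_REL, with overlapping libraries within each phase; it is not a direct check of the human transgene. All 10 skeletal muscle markers were detected in every library. TMM scaling factors, which edgeR computes to put libraries on one scale, averaged 0.948 in WT_WLM, 0.939 in mCK-hLPL_WLM, 1.04 in WT_REL and 1.09 in mCK-hLPL_REL, and they move with feeding. Levels below are CPM, counts scaled to a common library size, on the TMM scale unless total counts are named. A gene passed the test when its adjusted p was under 0.05 by edgeR's quasi-likelihood test with Benjamini-Hochberg adjustment over all 17028 genes.

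Promoters are shown for 4 members. Psmd4 and Psmd14 are the members that moved farthest down and up among those that passed, and Psmb5 and Psmb6 are catalytic subunits. Each sequence is the RefSeq stretch of 300 bases (250 before and 50 from the gene's start, build GRCm38.p6), 5′ to 3′ on the gene's strand. Capitals mark matches to CCAAT (or its reverse complement ATTGG) in the first pair, and to the antioxidant response element core TGACNNNGC in the second pair.
Psmd4, chr3:95042565-95042864, minus strand: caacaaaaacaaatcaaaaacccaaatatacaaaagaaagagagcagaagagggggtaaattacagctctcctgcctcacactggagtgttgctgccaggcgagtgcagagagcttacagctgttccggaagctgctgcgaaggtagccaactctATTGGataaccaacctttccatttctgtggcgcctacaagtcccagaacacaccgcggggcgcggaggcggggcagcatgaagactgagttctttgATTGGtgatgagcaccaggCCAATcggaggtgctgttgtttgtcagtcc
Psmd14, chr2:61711444-61711743, plus strand: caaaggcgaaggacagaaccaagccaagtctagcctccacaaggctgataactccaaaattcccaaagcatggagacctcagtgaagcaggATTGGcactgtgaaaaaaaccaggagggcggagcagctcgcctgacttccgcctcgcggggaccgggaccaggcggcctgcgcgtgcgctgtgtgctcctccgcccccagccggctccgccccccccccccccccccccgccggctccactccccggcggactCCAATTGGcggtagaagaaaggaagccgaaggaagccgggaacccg
Psmb5, chr14:54617946-54618245, minus strand: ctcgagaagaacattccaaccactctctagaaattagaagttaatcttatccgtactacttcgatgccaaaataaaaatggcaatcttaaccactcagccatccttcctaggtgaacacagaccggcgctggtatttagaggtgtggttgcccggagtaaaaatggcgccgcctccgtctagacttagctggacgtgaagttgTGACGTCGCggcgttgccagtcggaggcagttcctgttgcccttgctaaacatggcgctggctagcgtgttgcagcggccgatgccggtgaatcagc
Psmb6, chr11:70525107-70525406, plus strand: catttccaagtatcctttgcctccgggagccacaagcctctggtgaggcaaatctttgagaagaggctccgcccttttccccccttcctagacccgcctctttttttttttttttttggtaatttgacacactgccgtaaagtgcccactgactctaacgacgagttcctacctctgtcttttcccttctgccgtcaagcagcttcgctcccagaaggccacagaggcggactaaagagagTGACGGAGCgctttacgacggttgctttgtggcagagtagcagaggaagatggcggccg

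Of the 36 members, 29 had a promoter entry, and Psma8, Psmb1, Psmb2, Psmb7, Psmc3, Psmd3 and Psmd7 had none. Searched on both strands, CCAAT was found in 12 of the 29 (41.4%), against 41.1% of 27025 promoters of the same length. TGACNNNGC was found in 5 of the 29 (17.2%), namely Psmb5, Psmb6, Psmc6, Psmd12 and Psmd9, against 14% of all. The E-box CACGTG was in 2 of the 29 (6.9%), against 8.09%, and the FOXO site TGTTTAC was in 0 of the 29, against 4.05%. These shares differ little from those of all promoters and are a description of letters in a window. Matches of different motifs may overlap. Both Psmd4 and Psmd14, which moved in opposite directions, carried CCAAT close to the gene's start.

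Levels were compared between genes only per kilobase of exon. Each gene was taken as its mean over the 19 libraries, without Psma8 and Psmb11. The class median was 43.0 CPM per kb in the beta ring and 41.3 in the ATPases. It was 30.8 in the non-ATPase cap subunits and 27.5 in the alpha ring. Psmb6, the caspase-like catalytic subunit, was the highest beta gene at 64.6 CPM per kb, and Psmc3, an ATPase of the cap's base, was the highest ATPase gene at 70.6. Both kept that place with the longest transcript or the longest coding transcript as the length. The assembly chaperones of the base are not part of the finished particle, and they were the lowest class with all 3 lengths: Psmd10 (gankyrin) stood at 4.15 CPM per kb, Psmd5 at 2.07 and Psmd9 at 1.96. Within every class part of the order depended on the length chosen, and Psmd9 was the highest chaperone with the other 2 lengths. Psmb11, the beta subunit known from thymic epithelium, was near the limit of detection, from 0.0816 to 0.689 CPM.

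**Figure D1:**
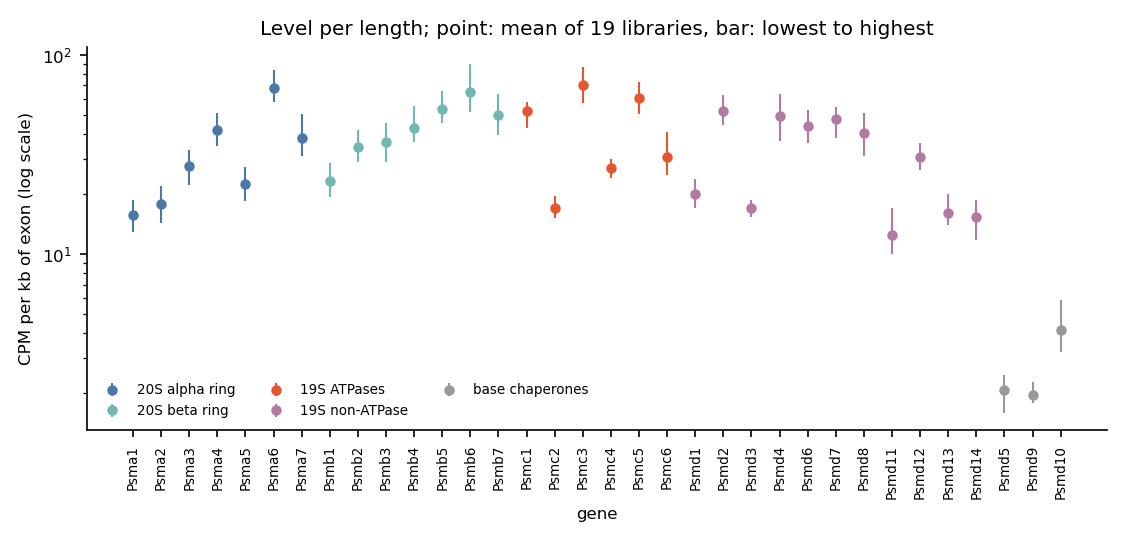
Level of 34 members per kilobase of exon on a log axis, without Psma8 and Psmb11; points are means over 19 libraries and bars run from the lowest to the highest library. The base chaperones lie between 1.96 and 4.15 CPM per kb, below the other classes.

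The refeeding comparison addresses how muscle changes from weight loss maintenance to the first day of regain. Averaged over both genotypes, 6 of 35 members passed the test, against a background of 20.7% of all genes (10.7% higher and 9.98% lower), so the members passed at about the rate of the table. Psmd4, Psmd2, Psmb1, Psmc3 and Psmc1 fell and Psmd14 rose. The median change of the members was -0.11 on the log2 scale, against 0.00 for all genes, and 29 of 35 lay below 0. That direction depended on the scaling: with total counts only, 28 of 35 lay above 0 with a median of 0.07, while the median of all genes moved to 0.18. Relative to all genes the members' median was therefore lower by about the same step on both scales. With total counts only, 11 members passed, 10 of them higher, and Psmd4 was the 1 that fell. The share of all genes that passed on that scale is not given here, so the 11 cannot be set against the table. Psmd4 fell and Psmd14 rose under all 5 scalings tried. TMM is 1 of the 5, and these members were named because they moved farthest on it. Their kept signs are therefore not an independent check.

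**Figure D2:**
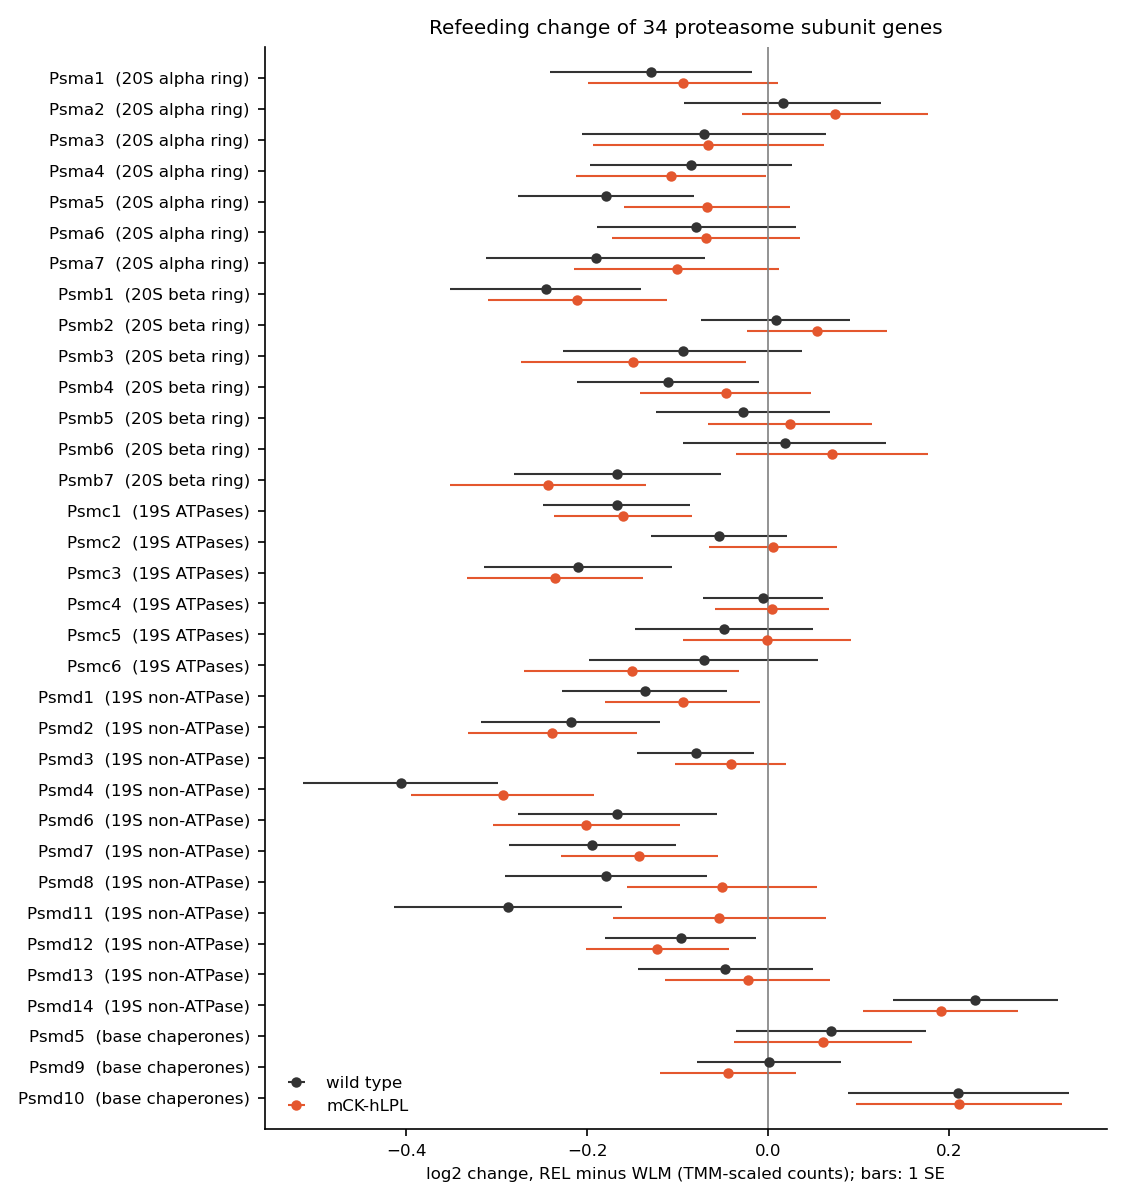
Change with refeeding (REL minus WLM, log2, TMM scale) of 34 members, in wild type (black) and mCK-hLPL (orange); bars are 1 SE. Most points lie left of 0 and would lie mostly right of 0 with total counts only; Psmd4 is the lowest and Psmd14 and Psmd10 are the highest.

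Psmd4, known in yeast as Rpn10, is a ubiquitin receptor of the cap. It stood at 157, 148, 152, 158 and 119 CPM in the WT_WLM libraries and at 109, 110, 122 and 103 CPM in WT_REL. In mCK-hLPL it stood at 143, 179, 157, 158 and 160 CPM in WLM and at 114, 125, 109, 157 and 144 CPM in REL. In wild type the groups overlapped only because WT_WLM 5 was low, and in mCK-hLPL 2 REL libraries reached into the WLM range. The fall was 0.35 on the log2 scale (-0.35, SE 0.07, edgeR adjusted p = 0.0028). In wild type alone Psmd4 fell by 0.41 (SE 0.11, edgeR adjusted p = 0.0368), the 1 member of 35 to pass there, against 4.88% of all genes. That call was lost without any 1 of WT_WLM 1, 2, 3 or 4 or WT_REL 1, 2 or B, where the edgeR adjusted p ran up to 0.138. It was also lost with total counts only (-0.27, adjusted p = 0.0527), with no filter on low counts (0.0733) and without the 3 libraries with most lymphocyte markers (0.0555), and over all alternatives the edgeR adjusted p reached 0.373. In mCK-hLPL the change was -0.29 (SE 0.10, edgeR adjusted p = 0.0777).

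Psmd14, Rpn11 in yeast, is the metalloprotease of the lid that takes ubiquitin chains off substrates. It stood at 37.0, 43.8, 36.9, 41.4 and 33.0 CPM in WT_WLM and at 47.9, 43.5, 44.7 and 44.1 CPM in WT_REL. In mCK-hLPL it stood at 40.2, 46.0, 42.3, 39.3 and 40.6 CPM in WLM and at 40.2, 50.1, 42.6, 52.3 and 52.8 CPM in REL. The wild-type groups met within a fraction of a CPM, and the mCK-hLPL groups overlapped. The rise was 0.21 (SE 0.06, edgeR adjusted p = 0.0228). It passed in 26 of 31 alternatives. It missed the threshold with the replicate number as a block and without WT_REL 1 (edgeR adjusted p = 0.0581). It also missed without the 3 libraries with most lymphocyte markers (0.108) and without the 3 with most liver markers (0.0839). Within each genotype it did not pass, at 0.23 in wild type and 0.19 in mCK-hLPL.

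**Figure D3:**
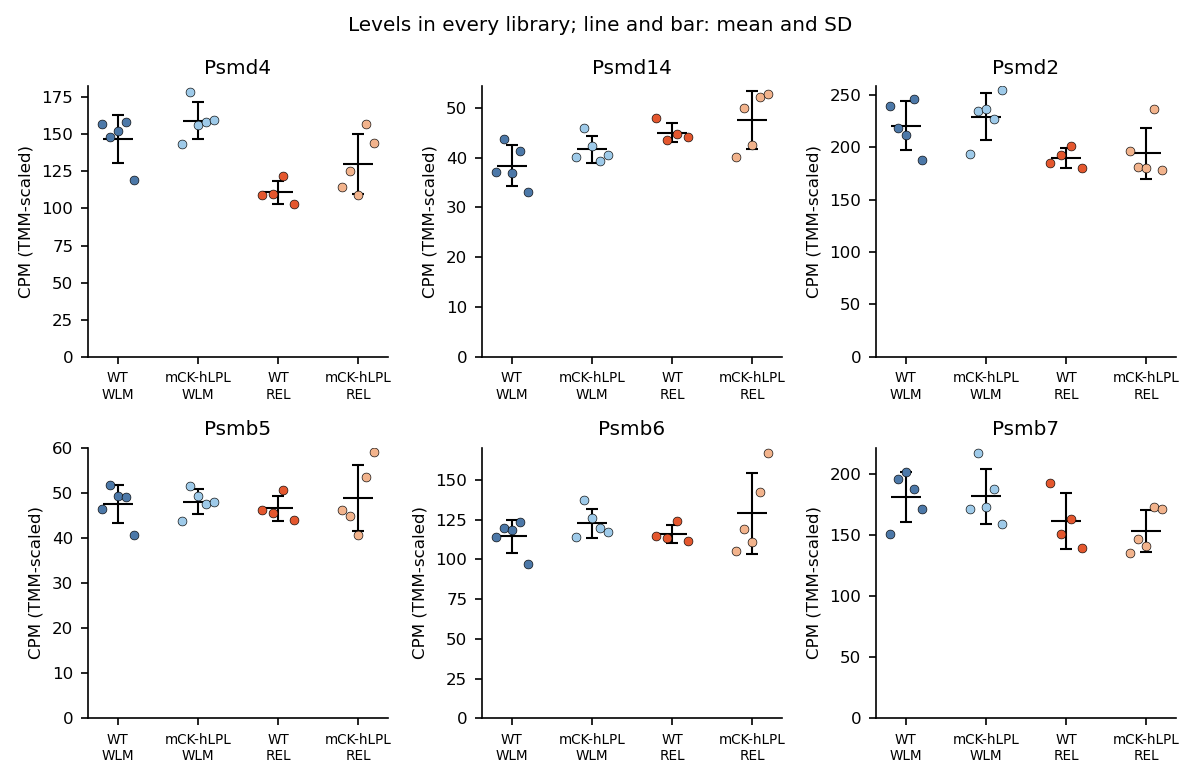
CPM (TMM scale, axes from 0) of 6 members in every library; the line and bar are the mean and SD of each group. Psmd4 averages lower and Psmd14 higher in the REL groups, though their libraries overlap between phases in both genotypes. The groups of the catalytic Psmb5 and Psmb6 overlap as well.

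The number of Psmd14 counts per Psmd4 count was taken in each library, a ratio that no scaling can move. The pair was taken because these members moved farthest up and down among those that passed. A shift of the ratio between phases was therefore built into the choice. The ratio was chosen after the values were seen and carries no test, and other pairs that separate the phases were not counted. In the 10 WLM libraries it ran from 0.235 to 0.296 with a median of 0.259, and in the 9 REL libraries from 0.333 to 0.439 with a median of 0.391. The ratio of this chosen pair did not overlap between phases in either genotype. As a share of the counts of all 36 members, Psmd14 took 1.11 to 1.36% in WLM and 1.49 to 1.70% in REL, and it was the 1 member whose shares separated the phases, against 1.61% of all genes tested that separated upwards on the same scale. Psmd4 took 4.35 to 5.29% in WLM and 3.604 to 4.703% in REL, which overlap.

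**Figure D4:**
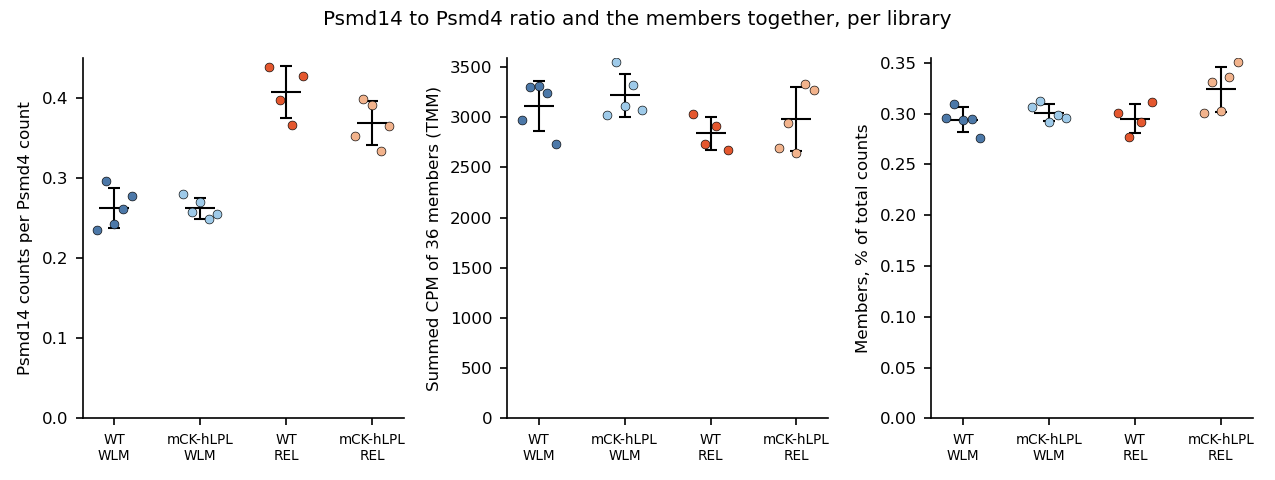
Psmd14 counts per Psmd4 count, summed CPM of the members on the TMM scale, and the members' share of total counts, per library, with group mean and SD; all axes start at 0. The ratio, of a pair chosen after its values were seen, separates the 10 WLM from the 9 REL libraries, whereas the summed levels overlap.

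Among the other cap subunits, Psmd2 (Rpn1 in yeast), a scaffold of the base that docks ubiquitin-binding shuttle proteins, fell by 0.23 (SE 0.07, edgeR adjusted p = 0.023). Its WT_WLM libraries stood at 239, 219, 212, 246 and 188 CPM and its WT_REL libraries at 185, 193, 201 and 180 CPM. Its mCK-hLPL_WLM libraries stood at 194, 235, 237, 227 and 254 CPM and its mCK-hLPL_REL libraries at 196, 181, 180, 236 and 178 CPM. In mCK-hLPL 3 of the 5 REL libraries lay below every WLM library, and in wild type the groups overlapped through WT_WLM 5. The call held in 25 of 31 alternatives, over which the change ran from -0.268 to -0.0513. Among the fits that lost it were those without WT_REL B and with total counts only.

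Of the 6 ATPases, which form the ring that unfolds substrates, 2 fell. Psmc3 averaged 194 ± 19.3 CPM in WT_WLM (SD, n = 5), 201 ± 17.7 in mCK-hLPL_WLM (n = 5), 167 ± 15.1 in WT_REL (n = 4) and 171 ± 23.5 in mCK-hLPL_REL (n = 5). Its change was -0.22 (SE 0.07, edgeR adjusted p = 0.0324), and reads in its exons may partly belong to Slc39a13, which overlaps it on the opposite strand over 215 bases. Psmc1 changed by -0.16 (SE 0.06, edgeR adjusted p = 0.0423), from 106 ± 7.52 to 94.0 ± 4.28 CPM in wild type and from 106 ± 5.32 to 94.8 ± 10.8 CPM in mCK-hLPL. Psmc1 was past 0 in the other direction, at 0.01, with total counts only. The call of Psmc1 was lost in 14 of the 19 fits that left out 1 library, and that of Psmc3 in 9.

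None of the 7 alpha subunits tested passed, with changes between -0.15 for Psma7 and the smaller positive value of Psma2, and none passed in either genotype by edgeR. Averaged over genotypes 0 of the 7 were under an unadjusted p of 0.05, against 5769 of 17028 genes, and DESeq2 called 0 of the 7. In the beta ring 1 of 8 passed: Psmb1, a structural subunit without a catalytic site. It averaged 114 ± 14.1 CPM in WT_WLM, 115 ± 14.2 in mCK-hLPL_WLM, 96.0 ± 9.09 in WT_REL and 99.0 ± 8.94 in mCK-hLPL_REL. Its change was -0.23 (SE 0.07, edgeR adjusted p = 0.0309), lost in 10 of the 19 fits that left out 1 library.

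The 3 catalytic subunits did not pass in any comparison of the main TMM fit by edgeR. Of the 3 only Psmb7 was under an unadjusted p of 0.05 averaged over genotypes. Psmb5, which carries the chymotrypsin-like activity, stood at 46.5, 51.9, 49.4, 49.2 and 40.8 CPM in WT_WLM and at 46.2, 45.6, 50.7 and 44.2 CPM in WT_REL. In mCK-hLPL it stood at 43.8, 51.6, 49.5, 47.7 and 48.1 CPM in WLM and at 46.3, 44.9, 40.6, 53.7 and 59.2 CPM in REL. All 4 groups overlapped, and the change averaged over genotypes was -0.00 with a 95% interval from -0.14 to 0.14 on the log2 scale. With total counts only it was 0.18 (edgeR adjusted p = 0.0179).

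Psmb6 stood at 114, 120, 119, 123 and 96.9 CPM in WT_WLM and at 115, 114, 124 and 112 CPM in WT_REL. In mCK-hLPL it stood at 114, 137, 126, 120 and 117 CPM in WLM and at 105, 119, 111, 143 and 167 CPM in REL. The groups overlapped, with mCK-hLPL_REL 5 the highest library, and the change was 0.04 with an interval from -0.12 to 0.21. On total counts alone it was 0.22 (edgeR adjusted p = 0.0133). Psmb7, the trypsin-like subunit, stood at 151, 196, 202, 188 and 171 CPM in WT_WLM and at 193, 151, 163 and 140 CPM in WT_REL. In mCK-hLPL it stood at 172, 218, 173, 188 and 159 CPM in WLM and at 136, 147, 141, 173 and 172 CPM in REL. Its groups overlapped, and its change was -0.20 (SE 0.08, edgeR adjusted p = 0.072). It was -0.03 with total counts only, and -0.27 without the 3 libraries with most lymphocyte markers, where it passed by edgeR. Exons of Nek6 cover 405 bases of Psmb7 on the opposite strand, so its counts are less certain.

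The 3 base chaperones did not pass in the main TMM fit, and 1 was under an unadjusted p of 0.05. Psmd10, which escorts an ATPase pair during assembly, changed by 0.21 (SE 0.08, edgeR adjusted p = 0.0798), from 5.30 ± 0.562 to 6.12 ± 0.497 CPM in wild type and from 6.01 ± 0.421 to 6.95 ± 1.38 CPM in mCK-hLPL. Psmd10 passed in 2 of the 19 fits that left out 1 library, and with total counts only all 3 chaperones passed as higher. Psmd11, a lid subunit that helps hold cap and core together, was the 1 member whose wild-type groups did not overlap, at 73.3 to 91.2 CPM in WLM and 63.7 to 70.1 CPM in REL, against 4.42% of genes that separated in that direction. Its change in wild type was -0.29 (SE 0.13, edgeR adjusted p = 0.199), and it passed there when only these 2 groups were fitted (edgeR adjusted p = 0.041), at the low end of a range up to 0.499 over all alternatives.

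Within mCK-hLPL, 0 of 35 members passed for refeeding by edgeR, against 8.15% of all genes. By unadjusted p 7 of 35 members were under 0.05, against 4162 of 17028 genes. DESeq2 called 1 member, Psmd4. Psmd2 came next with -0.24 (SE 0.09, edgeR adjusted p = 0.118). Side by side, 25 of 35 members lay below 0 in both genotypes on the TMM scale, 6 lay above 0 in both and 4 differed in sign. Of all genes, 50.4% lay below 0 in wild type and 48.4% in mCK-hLPL, and the share below 0 in both was not counted. The members' signs depended on the scaling, as given above for the average over genotypes. The interaction, which tests whether refeeding changed a member differently in mCK-hLPL, called 0 of 35 members and 0% of genes by edgeR. No member was under 0.05 by unadjusted p there, against 403 of 17028 genes, and DESeq2 called 0 members. The member of smallest p was Psmd11, with an interaction of 0.23 (95% interval from -0.13 to 0.59, edgeR adjusted p = 0.9998).

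Genotype was compared to ask what the transgene does to the muscle within each phase. In WLM 0 of 35 members passed, against 0.0294% of all genes, and in REL 0 passed, against 0.0117%. Averaged over phases 0 passed, against 0.211%. By unadjusted edgeR p the numbers of members under 0.05 were 0 in WLM, 1 in REL and 3 averaged. Of all 17028 genes, 828, 743 and 1153 were under 0.05 in the same order. DESeq2 called 0 members in each. Averaged over phases, 30 of 35 members were higher in mCK-hLPL with a median of 0.05. Of all genes, 50.3% lay above 0 on the same TMM scale, with a median of 0.0009. With total counts only, 31 of 35 members were higher, with a median of 0.08. The share and median of all genes for this comparison on total counts are not given here.

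Psma7, a subunit of the alpha ring, had the smallest p averaged over phases, with 0.20 (95% interval from 0.02 to 0.37, edgeR adjusted p = 0.687). It averaged 116 ± 13.2 CPM in WT_WLM, 129 ± 15.8 in mCK-hLPL_WLM, 102 ± 5.99 in WT_REL and 120 ± 22.0 in mCK-hLPL_REL. Psmd4 came next with 0.17 (interval from 0.02 to 0.33, edgeR adjusted p = 0.689). In WLM the members of smallest p were Psmd10 at 0.18 and Psmd14 at 0.12. In REL they were Psmd4 at 0.23 and Psmd11 at 0.26. Over the 34 members other than Psmb11, the 95% intervals of the averaged genotype difference lay between -0.23 and 0.37.

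On the TMM scale the members varied together from library to library, and the share of all genes that did so was not counted. In mCK-hLPL_WLM 2, 33 of 35 members stood above their group mean, and in mCK-hLPL_REL 4 the number was also 33. In mCK-hLPL_REL 3, 34 stood below it, and in WT_WLM 5, 33 did. The median deviation of the members from their mean over all libraries ran from -0.17 to 0.19 on the log2 scale, as wide as most of the refeeding changes. The TMM factor was 0.88 in mCK-hLPL_WLM 2, at the top of that range, and 1.14 in mCK-hLPL_REL 3, at its bottom; as shares of total counts the members stood at 0.312% and 0.302% there. Among the 34 members other than the barely detected Psmb11 (42.9%), the within-group coefficient of variation, as the median over groups, was lowest in Psmd3 at 4.75% and highest in Psma3 at 15.3%. In mCK-hLPL_REL 2, Psmd11 stood at 108 CPM and Psmd8 at 156 CPM, the highest of the 5 libraries in both, while 24 members there were below their group mean.

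**Figure D5:**
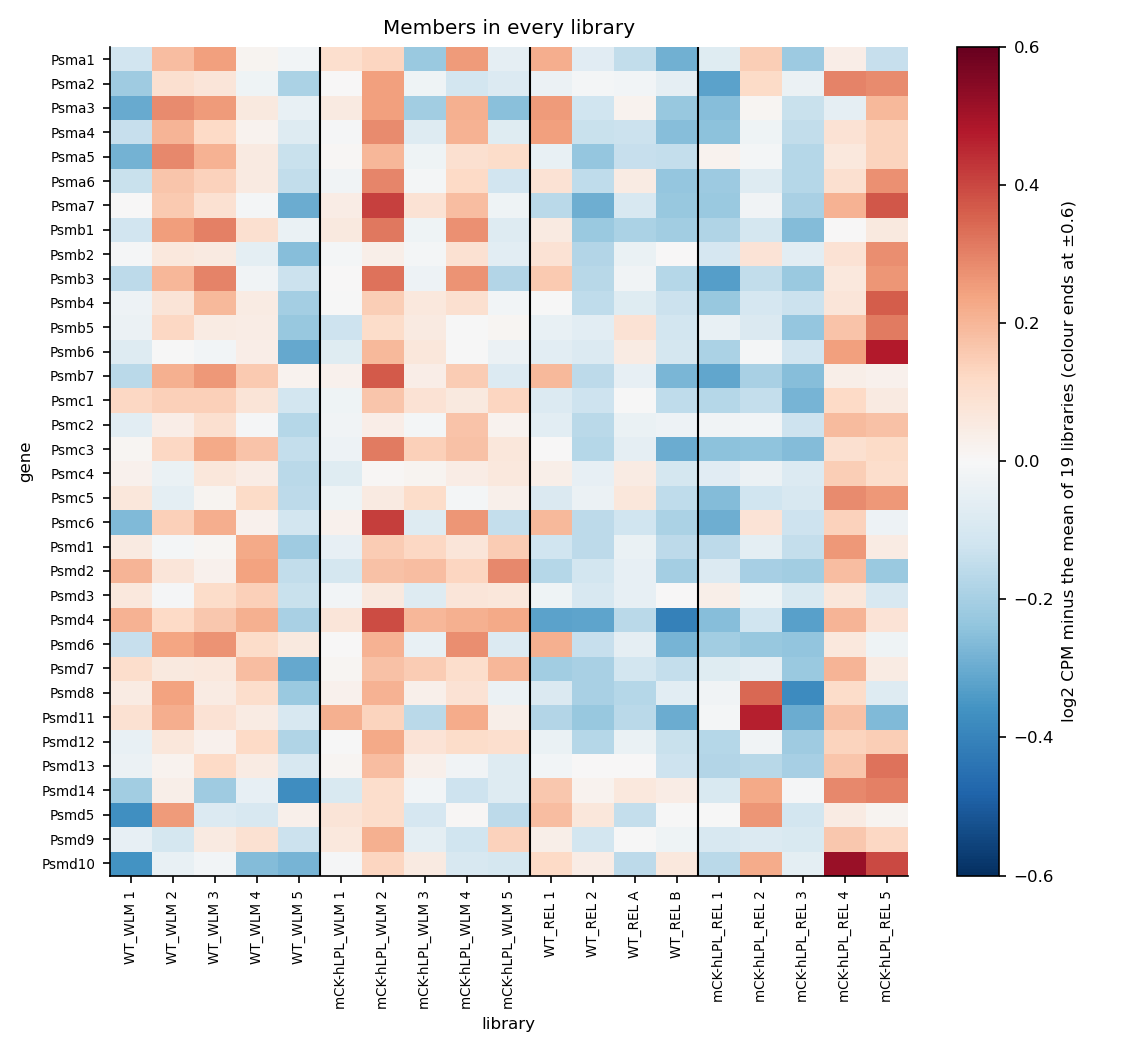
Log2 CPM of 34 members in each of 19 libraries, relative to the gene's mean over the libraries; red is higher and blue lower. Whole columns share a colour, as in mCK-hLPL_WLM 2 and mCK-hLPL_REL 3.

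Summed over all 36 members, the level was 3114 ± 251 CPM in WT_WLM (n = 5), 3217 ± 217 in mCK-hLPL_WLM (n = 5), 2838 ± 164 in WT_REL (n = 4) and 2979 ± 319 in mCK-hLPL_REL (n = 5). As a share of total counts, with no TMM factor, the members made up 0.294% ± 0.0121, 0.301% ± 0.00827, 0.295% ± 0.0144 and 0.324% ± 0.0222 in the same order. The groups overlapped on both scales, and the order of the phases differed between them.

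Other RNA moved with feeding too. Summed skeletal muscle markers averaged 179600 CPM in WT_WLM, 177300 in mCK-hLPL_WLM, 158300 in WT_REL and 148900 in mCK-hLPL_REL. All 6 erythroid markers were higher after refeeding by edgeR, with a median of 1.41, and their sum ran from 498 to 3109 CPM in WLM and from 1017 to 11660 CPM in REL. Of 6 fibroblast markers 4 were higher, and of 7 lymphocyte markers tested 6 were lower, with summed lymphocyte levels of up to 41.8 CPM in WLM and up to 3.17 in REL. The high WLM sums came from WT_WLM 1, WT_WLM 5 and mCK-hLPL_WLM 3, and the group medians were 1.34 CPM in WT_WLM, 0.612 in mCK-hLPL_WLM, 0.501 in WT_REL and 0.799 in mCK-hLPL_REL. Of the 9 lymphocyte markers, 7 were at 0 in some libraries. Of 8 liver markers none passed by edgeR (3 under an unadjusted p of 0.05), 7 were at 0 in some libraries, and their sum reached 33.4 CPM in WLM and 164 in REL. In bulk muscle, fewer cells of a type and less RNA per cell cannot be told apart, and the part of these markers in the members' changes was not tested. Of 10 skeletal muscle markers 3 fell and 0 rose by edgeR.

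Genes that work with the members were read on the same TMM scale for refeeding averaged over genotypes. The 3 interferon-induced beta subunits, which replace catalytic subunits in immune settings, did not pass by edgeR, and 0 of 3 were under an unadjusted p of 0.05. Psmb9 changed by -0.20 and Psmb10 by 0.05. None of 5 core assembly factors passed by edgeR (0 under an unadjusted p of 0.05), with Psmg3 at 0.15 and Psmg1 at 0.13, but 3 of 5 were higher with total counts only. Of 5 activators and inhibitors 1 fell, Psme4, whose product caps the core without ATP. Its change was -0.44 (SE 0.08, edgeR adjusted p = 0.0012), with -0.43 in wild type and -0.45 in mCK-hLPL.

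Of 15 proteasome-associated genes tested, 5 fell and 0 rose, and all 15 lay below 0, against 6 of 15 with total counts only, where 1 fell and 4 rose. Zfand5, which in mouse binds the proteasome and stimulates degradation in atrophying muscle, changed by -0.45 (edgeR adjusted p = 0.000203). Nploc4, a cofactor of the segregase that pulls ubiquitylated proteins from complexes, changed by -0.35 (edgeR adjusted p = 0.000753). Uchl5, a deubiquitinase of the cap, changed by -0.24, and Adrm1, the ubiquitin receptor that anchors it, by -0.20.

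Of 8 regulators of proteasome genes tested 4 fell, although 0 passed with total counts only. Nfe2l1, the transcription factor that induces proteasome genes when proteasome activity is short, changed by -0.30 (SE 0.09, edgeR adjusted p = 0.0192). Its DNA-binding partners Mafk and Mafg changed by -0.33 and -0.25 (the latter lost without WT_REL 1 or WT_REL B), and Ngly1, the enzyme that removes sugars from Nfe2l1, changed by -0.16, a call lost in 13 of the 19 fits that left out 1 library. Ubb, which encodes a chain of ubiquitin units, changed by -0.22 (SE 0.06, edgeR adjusted p = 0.0209), and its call was lost without WT_REL B or mCK-hLPL_REL 2.

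Of 10 ubiquitin-conjugating enzymes, Ube2b fell (-0.38, edgeR adjusted p = 0.000672), while Ube2n (0.26) and Ube2d2a (0.16, lost without WT_REL 1) rose. On total counts alone 5 rose and 1 fell. Of 17 muscle ubiquitin ligases, which select the substrates, 8 fell and 1 rose. Trim55, a ligase of the sarcomere, rose by 0.45 (SE 0.05, edgeR adjusted p = 3.08e-05). Fbxo31, Fbxo21 and Cblb changed by -0.56, -0.58 and -0.61. Fbxo32 (atrogin-1) and Trim63 (MuRF1), the ligases most used as atrophy markers and chosen here after their values were seen, changed by -0.98 (SE 0.21, edgeR adjusted p = 0.0028) and -0.61 (SE 0.18, edgeR adjusted p = 0.0197, lost without WT_REL B). With total counts only, 7 ligases were lower and 4 higher. Of the 9 ligases that passed, 7 changed by more than Psmd4, which moved farthest of the members that passed. By genotype none of the genes in these lists passed by edgeR, in WLM, in REL or averaged. The interferon-induced Psmb8 and Psmb9 were each 0.54 higher in mCK-hLPL after refeeding, at an unadjusted p of 0.0168 and 0.0203, neither of which held after adjustment (edgeR adjusted p = 0.9995).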

How the data were processed

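The authors deposited a table of raw counts per gene, named by symbol, for 19 libraries. Salmon 0.14.2, DESeq2 1.28.1 and builds mm10 and GRCm38 are named per the submitters' processing notes, while no annotation or strand setting is given in the sources used here. Libraries were prepared from total RNA with a NuGEN mRNA kit, per the labels' protocols. Low counts were removed with filterByExpr (at least 10 in enough libraries and 15 in all), the rest scaled by TMM and tested with edgeR 4.0.16 (R 4.3.3) in 1 quasi-likelihood fit of 4 groups with 7 contrasts, and Benjamini-Hochberg adjusted over 17028 genes. The procedure was tested on simulated data. No 2 libraries of a group agreed within sampling noise (lowest chi-square per degree of freedom 25.6 over 36 pairs). CPM per kilobase used exon lengths from GENCODE M21, and promoters came from RefSeq GRCm38.p6.

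The members and gene lists were chosen with earlier results of these data known. Text names Psmb5, Psmb6 and Psmb7, then for each contrast up to 4 members per direction of smallest p among those past the threshold (2 where none passed), and the same per list. Other genes are said to be chosen after their values were seen. Exons of 9 members (Psma4, Psma5, Psmb5, Psmb7, Psmc3, Psmd1, Psmd3, Psmd9 and Psmd13) overlap those of another gene, so their counts are less certain. The 4 named Psm pseudogene rows held at most 3 counts. Alternatives were other filters and scalings, DESeq2 1.42.0, fits of only the groups compared, a replicate block, libraries left out, and other gene lengths. Scaling to the members' own sum and the coding transcript length were added after seeing the data. Some items of the gene lists are not reported here.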

Additional observations from a re-analysis of the deposited data

Results flagged for a closer look

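In 140 groups of 4 or 5 libraries, 8 held a library that stood apart from the rest of its group by Dixon's ratio, close to the rate of about 1 in 20 that chance gives. Psmd4 was 119 CPM in WT_WLM 5, where the other WT_WLM libraries ran from 148 to 158 CPM. Psmd7, a lid subunit, was 86.4 CPM and Psmc1 was 92.6 CPM in the same library, whose nearest neighbours were at 112 and 106 CPM. In WT_WLM 5, 33 of 35 members were below the group mean, and it also had the most lymphocyte marker counts, summing to 41.8 CPM; the part of that in the values was not tested. In WT_REL 1, Psmb1 was 109.5 CPM against at most 92.6 CPM in the others, and Psmc6, an ATPase, was 122 CPM against at most 98.3 CPM. Psma2 was 77.4 CPM in mCK-hLPL_WLM 2, with the next at 65.3 CPM. Psmd13, a lid subunit, was 49.3 CPM in WT_REL B, below 53.1 CPM in the next. Psmb11 was 0.221 CPM in mCK-hLPL_WLM 1, near the limit of detection.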

How the results depend on the processing

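Refeeding averaged over genotypes called 6 members. It called 2 with no filter on low counts, 11 with total counts only, and 2 to 8 when 1 library was left out (3 without WT_WLM 3, mCK-hLPL_WLM 2 or WT_REL 2, and 2 without WT_REL B). In wild type the 1 call became 0 with no filter and 0 without the libraries rich in lymphocyte markers, 2 when only the 2 groups were fitted, 3 when scaled to the members' sum, and 0 to 1 with 1 library left out. In mCK-hLPL the 0 calls became 8 with total counts only, 1 when scaled to the members' sum, 1 with DESeq2, 3 without the libraries rich in liver markers, and 0 to 2 with 1 library left out (2 without mCK-hLPL_REL 4). Genotype and interaction counts of members stayed at 0 in every alternative. With 1 library left out, the whole table held 2626 to 3647 calls averaged over genotypes, 257 to 1027 in wild type and 674 to 1705 in mCK-hLPL. For the other alternatives, total counts included, the number over all genes is not given here. With total counts only most members changed sign, from 29 of 35 below 0 to 7 of 35; among the genes named these include Psmb5 (0.18) and Psmc1 (0.013), as did Ngly1 (0.0146), and the median of all genes moved by as much as 0.18 averaged over genotypes. The cause was not tested.

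The replicate numbers were not taken as pairs in the main fit. Of 21 same-numbered pairs, 7 had a correlation over 0.1, with a median of 0.067, against -0.010 for pairs of other number. Whether the numbers mark paired samples cannot be told from these values. With the replicate block over the 17 numbered libraries, 0 members were called averaged over genotypes and 0 in wild type, against 1 and 0 in the same libraries without the block. Psmd4 kept a change of -0.35 with the block (edgeR adjusted p = 0.0529). The 34 members tested other than Psmb11 had at least 187 counts in every library, the lowest in Psmd10. Psmb11 had at most 26, and its changes carry SEs from 0.31 to 0.62.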
